A study of Homo sapiens with 12 samples.

Results

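SPP1 encodes osteopontin, a secreted phosphorylated glycoprotein, and CD44 encodes a cell surface receptor that binds it. Both were followed in HCC827, a cell line from a human lung adenocarcinoma whose growth depends on a mutant EGFR, and in cells derived from it. Transcript levels came from 12 expression arrays in 4 groups of 3. The first set held the parental line, per its label simply HCC827, and ERC4, a line whose label calls it erlotinib resistant. Erlotinib blocks the kinase of EGFR. The second set held HCC827NT cells, which carry a lentivirus for a non-target shRNA, and HCC827_Esh9-1 cells, which carry one for an shRNA against EGFR. They are called NT and Esh9-1 here. Another label calls all 12 samples resistant, parental ones included, so the groups follow the sample titles. All cells grew in RPMI with 5% FBS, and NT and Esh9-1 cells also with 5 ug/ml puromycin. With 1 resistant line and 1 shRNA label, what is particular to that line or shRNA and what goes with resistance or EGFR loss cannot be told apart. Nothing in the labels tells whether the 3 arrays of a group are separate cultures, and p-values then cover the spread among these arrays alone, which may be technical. In these bulk samples, a change in the mix of cells and a change in RNA per cell cannot be told apart.

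The members are the probe sets that the platform annotation gives to SPP1 or CD44 alone. There were 9 among 22277, or 2 genes of 11963. SPP1 had 1, 209875_s_at, and CD44 had 8: 204489_s_at, 204490_s_at, 209835_x_at, 210916_s_at, 212014_x_at, 212063_at, 216056_at and 217523_at. The members were chosen from measured values of these arrays, with no record of which. The SPP1 values in both comparisons and the CD44 values between ERC4 and parental cells were treated as used for the choice and are given as a description without a test. CD44 was tested between Esh9-1 and NT, on arrays that the other comparison does not use. Those CD44 values may also have been known when the members were chosen, so the p-values are not independent evidence.

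Osteopontin is made by bone cells, activated macrophages and many carcinomas. It binds integrins through an arginine-glycine-aspartate motif and nearby sequences, and its effects on cell adhesion and survival have also been linked to CD44. CD44 is the main receptor for hyaluronan, a long sugar polymer of the matrix. Its transcript has a block of variable exons that epithelial cells tend to include and mesenchymal cells tend to skip. Probe sets at different places along the gene can therefore read different isoforms. In the platform's naming, a probe set ending in _s_at can match several transcripts of a family and one ending in _x_at may also match unrelated ones.

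The start regions of both genes are shown because both transcripts were higher in the derived lines and several of the transcription factors known to act on SPP1 were measured. The windows are RefSeq promoters on GRCh38.p14, with 250 bases before and 50 after the start. Capitals mark matches, on either strand and with no overlap among them, to any of 4 short motifs: TGTGGT, the core bound by RUNX factors; TGANTCA, bound by AP-1; GGGCGG, the GC box; and GGAAGT, an ETS site. The motifs were chosen after the sequences were seen. SPP1 lies on the plus strand at chr4:87975464-87975763 and CD44 on the plus strand at chr11:35138921-35139220.
SPP1: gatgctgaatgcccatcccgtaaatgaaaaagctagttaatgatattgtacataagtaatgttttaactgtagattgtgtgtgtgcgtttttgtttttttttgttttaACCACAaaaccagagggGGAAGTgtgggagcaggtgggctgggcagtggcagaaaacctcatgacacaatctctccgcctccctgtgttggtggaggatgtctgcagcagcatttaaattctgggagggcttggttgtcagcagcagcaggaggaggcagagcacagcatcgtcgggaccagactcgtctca
CD44: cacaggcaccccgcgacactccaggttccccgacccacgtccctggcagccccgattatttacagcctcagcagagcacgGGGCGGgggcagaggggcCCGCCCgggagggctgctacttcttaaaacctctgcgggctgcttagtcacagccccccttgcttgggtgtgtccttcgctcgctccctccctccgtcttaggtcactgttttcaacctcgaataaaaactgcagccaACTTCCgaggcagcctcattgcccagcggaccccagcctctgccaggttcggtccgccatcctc
The SPP1 window held 1 RUNX core, at -142 from the start, and 1 ETS site at -125. Of 35116 promoters of this length, 13.1% hold the RUNX core and 22.8% the ETS site. The CD44 window held 2 GC boxes, found in 45.0% of promoters, and 1 ETS site at -14. Neither window held the AP-1 letters, which 7.71% of promoters hold. G and C made up 47.7% of the SPP1 window and 63.3% of the CD44 window, against a median of 58.7%. These are matches of letters and not measured binding.

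Levels are given as log2(intensity + 1) of the deposited RMA values. Array medians were unequal between the sets, so levels are compared only within a set. Which arrays were scaled together is not given, and this also holds for the 2 groups of a set. Array medians were 5.67 to 5.75 in parental and ERC4 arrays and 7.15 to 7.17 in NT and Esh9-1 arrays. The SD of log2 levels over an array was 1.83 to 1.84 in parental and 1.94 to 1.96 in ERC4 cells. It was 2.24 to 2.26 in NT and 2.26 to 2.27 in Esh9-1 cells. The part of this unequal spread in the results was not tested. Spiked hybridisation controls, whose RNA does not come from the cells, averaged 10.75 and 9.16 in the parental and ERC4 groups. In the shRNA set they averaged 11.04 (NT) and 11.65 (Esh9-1). Their part in the results was not tested. EGFR itself was lower in Esh9-1 than in NT by 1.30 ± 0.07 (limma SE) in its brightest probe set (limma adjusted p = 9.2e-07). In 3 other bright EGFR probe sets the differences were -2.16 to -2.72, and in the remaining 2, close to or below the array medians, 0.06 and 0.18. In the parental cells 8 of 8 epithelial markers lay at or above the array medians. All 8 were called lower in ERC4 and in Esh9-1, where CDH1 lay below the medians. Of 2 lung markers measured, NKX2-1 was called higher in ERC4, at 0.37 ± 0.09, and lower in Esh9-1, at -1.06 ± 0.08. Its ERC4 call ended after quantile normalization and with the mean of its probe sets. SFTPB gave 0.01 ± 0.09 in ERC4, not called, and -0.54 ± 0.13 in Esh9-1, a call that ended with the mean of its probe sets.

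SPP1 was near the bottom of the array range in parental cells and well above the middle of it in ERC4. Its log2 levels were 4.28, 4.45 and 4.51 on the parental arrays and 10.31, 10.11 and 9.99 on the ERC4 arrays. The groups did not overlap, and the lowest ERC4 array lay 5.48 above the highest parental one. The difference of 5.72 ± 0.10 (limma SE, n = 3 against 3) ranked 1 among the 22215 probe sets tested. As linear intensities, the means were 20.4 and 1130. All 3 parental arrays lay below their array medians (mean difference -1.34), so the size of the ratio rests on a dim signal. Set against the parental array medians in place of the SPP1 signal, the ERC4 level would be higher by 4.39.

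In the shRNA set SPP1 was dim in both groups. Its log2 levels were 4.49, 4.40 and 4.57 in NT and 5.21, 5.16 and 5.21 in Esh9-1. The groups did not overlap, but both lay below the array medians (mean differences -2.68 and -1.98). The difference of 0.71 ± 0.07 (SE) corresponds to mean intensities of 21.5 and 35.6, against 1130 in ERC4 on another scale. A larger difference was seen in 8.26% of probe sets, and 28.0% were higher in Esh9-1 without overlap. Whether the SPP1 differences of the 2 comparisons are unequal was not tested.

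**Figure D1:**
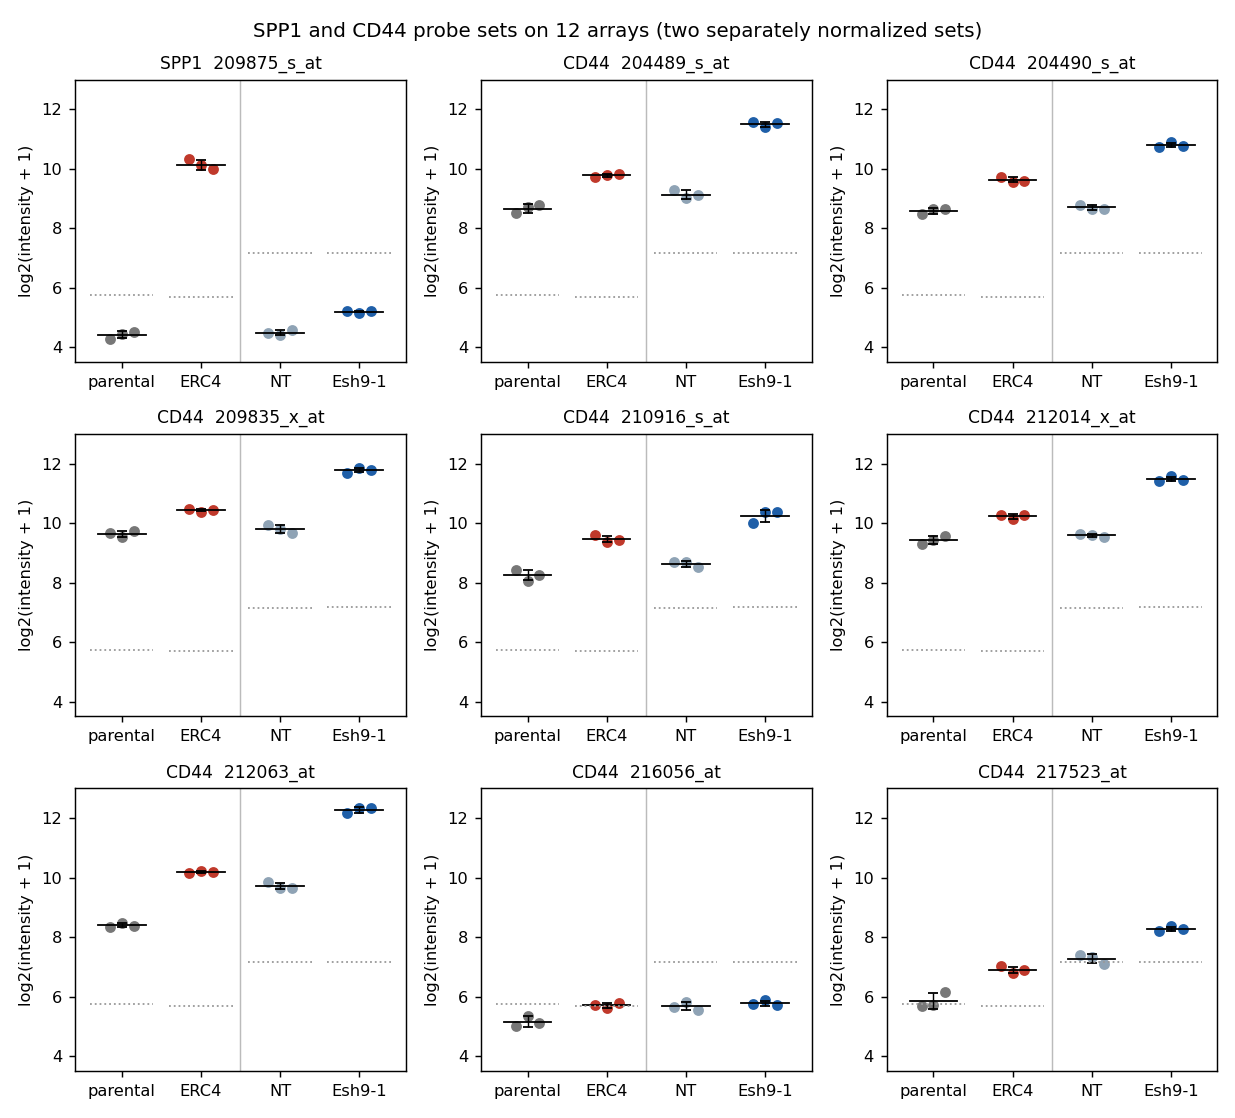
Log2(intensity + 1) of the SPP1 probe set and the 8 CD44 probe sets on each of the 12 arrays; points are arrays, black lines and bars are the mean ± SD (n = 3), and dotted lines are array medians. Vertical lines part the sets, whose array medians were unequal. SPP1 is above the medians in ERC4 only, while 7 CD44 probe sets separate Esh9-1 from NT.

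In 6 of its 8 probe sets CD44 was well above the array medians in parental and NT cells, and it was higher still in both derived lines. In ERC4, all 8 probe sets were higher than in parental cells with no overlap between the groups, where 27.2% of all probe sets were higher without overlap. Their log2 differences ran from 0.55 to 1.80 with a median of 1.05, beside a median of -0.06 over all probe sets. At least 2-fold differences were seen in 5 of the 8, and in 3.85% of all probe sets upwards. Since all 8 read 1 gene and lie in a comparison treated as used for the choice, nothing is read from these counts.

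The brightest probe set, 209835_x_at, gave 9.66, 9.53 and 9.74 in parental and 10.49, 10.39 and 10.46 in ERC4 cells. All ERC4 arrays were higher than all parental arrays, by 0.80 ± 0.08 (SE) between the means, a 1.74-fold difference. This value was 0.62 after quantile normalization of the 6 arrays. The largest difference was in 212063_at, with 8.34, 8.47 and 8.37 in parental and 10.17, 10.24 and 10.18 in ERC4 cells. It came to 1.80 ± 0.08, or 3.49-fold.

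Next came 210916_s_at, at 1.22 ± 0.11, from 8.42, 8.07 and 8.27 in parental to 9.59, 9.37 and 9.45 in ERC4 cells. The probe sets 204489_s_at and 204490_s_at gave 1.12 ± 0.09 and 1.05 ± 0.09, and 212014_x_at gave 0.80 ± 0.09. The last of these and 209835_x_at thus gave nearly the same value. The probe set 217523_at, whose parental mean of 5.84 lay close to the array medians, gave 1.05 ± 0.13. The dimmest, 216056_at, lay at 5.16 and 5.70, around the array medians, and gave 0.55 ± 0.10.

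Between NT and Esh9-1 cells CD44 rose in 7 of 8 probe sets (limma, Benjamini-Hochberg, at the 0.05 threshold), where 24.5% of all probe sets were called higher there. The 7 that passed also differed by at least 2-fold, as did 4.55% of all probe sets upwards. Here too all 8 read 1 gene on the same arrays, so the 7 calls are not independent of each other. The median over the 8 was 1.94, beside -0.03 over all probe sets. The brightest probe set, 209835_x_at, gave 9.92, 9.82 and 9.67 in NT and 11.71, 11.85 and 11.78 in Esh9-1 cells. It rose by 1.98 ± 0.08 (SE), or 3.94-fold (limma adjusted p = 9.3e-08), with no overlap between the groups.

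The largest increase was again in 212063_at, from 9.84, 9.67 and 9.66 in NT to 12.16, 12.34 and 12.35 in Esh9-1 cells. It came to 2.56 ± 0.08, or 5.90-fold (limma adjusted p = 2.2e-08). The increases in 204489_s_at, 204490_s_at and 212014_x_at were 2.36 ± 0.09, 2.11 ± 0.07 and 1.90 ± 0.07 (limma adjusted p = 4.85e-08, 3.03e-08 and 4.46e-08). All 3 Esh9-1 arrays lay above all 3 NT arrays in each of them. In 210916_s_at the arrays gave 8.68, 8.71 and 8.52 in NT and 10.00, 10.37 and 10.36 in Esh9-1 cells, an increase of 1.61 ± 0.11 (limma adjusted p = 2.3e-06). Its first Esh9-1 array was the lowest of the 3.

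The probe set 217523_at rose by 1.01 ± 0.09 (limma adjusted p = 1.2e-05), from a level of 7.27 close to the array medians. The dimmest, 216056_at, gave 5.65, 5.81 and 5.55 in NT and 5.76, 5.87 and 5.71 in Esh9-1 cells. Its groups overlapped and its difference of 0.11 ± 0.08 was not called (limma adjusted p = 0.3), at levels below the array medians.

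**Figure D2:**
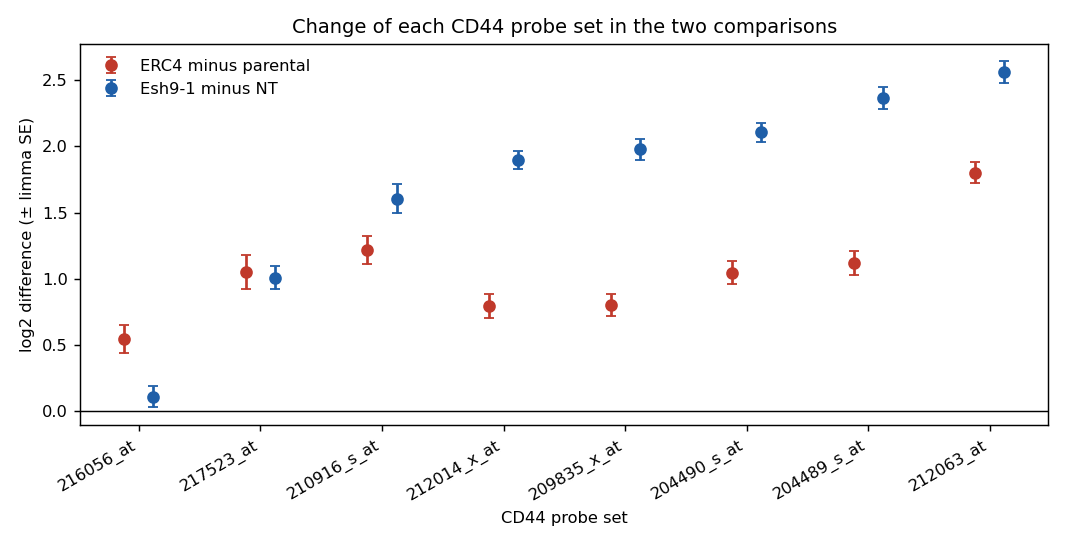
Log2 difference of each CD44 probe set in ERC4 minus parental and in Esh9-1 minus NT, ordered by the latter; bars are limma standard errors and each difference is of 3 arrays against 3. The probe set 212063_at has the largest value in both, at 1.80 and 2.56, and 216056_at the smallest, at 0.55 and 0.11.

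The CD44 probe sets gave unequal differences. To compare them, the level of 209835_x_at was subtracted from that of each other probe set on the same array. For 212063_at the result was -0.08 ± 0.07 (SD, n = 3) in NT and 0.50 ± 0.06 in Esh9-1, a difference of 0.58. For 204489_s_at and 204490_s_at the difference was 0.39 and 0.13. It was -0.37 for 210916_s_at, and -0.97 and -1.87 for 217523_at and 216056_at, the dimmest of the 8. The value for 216056_at follows the rise of 209835_x_at by 1.98, as 216056_at itself gave 0.11 at levels below the array medians. In these 6 the groups did not overlap, while in 212014_x_at, with a difference of -0.08, they did. How often other probe sets would not overlap after such a subtraction was not computed. The exact permutation test set for these 7 differences, two-sided, cannot go below p = 0.1 with 3 arrays against 3. It could call none of them whatever the data, no other test of them was run, and they are given as a description.

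In ERC4 against parental cells the same subtraction gave 1.00 for 212063_at, 0.42 for 210916_s_at, 0.32 for 204489_s_at and 0.25 for 204490_s_at, all without overlap. The probe set 210916_s_at thus stood above 209835_x_at in its difference from parental cells and below it in its difference from NT. The remaining probe sets gave a value of under 0.01 in size for 212014_x_at, 0.25 for 217523_at and -0.25 for 216056_at, with overlapping groups. Control probe sets on the array for ACTB, which compare the 3' and 5' ends of that transcript, differed by 0.20 (3' minus 5', log2) in NT and by 1.07 in Esh9-1, and by 0.22 and 0.19 in the parental and ERC4 groups. Those for GAPDH gave -0.05 in NT and 0.30 in Esh9-1. The 3' excess was thus higher in Esh9-1 than in NT, and its part in the CD44 probe set differences was not tested.

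Genes known to govern the splicing of CD44 were examined beside these values. Of 12 measured, 6 were called higher and 3 lower in ERC4 (median 0.21), and 4 higher and 6 lower in Esh9-1 (median -0.09). Among the 11963 genes as a whole, the background for this list and those below, calls were higher in 26% and lower in 24.8% for ERC4. For Esh9-1 calls were higher in 26.2% and lower in 26.1%. The medians over all genes were -0.04 in ERC4 and -0.02 in Esh9-1. The balance of calls over all probe sets in ERC4 depended on scaling: 5252 (23.6%) were higher and 5522 (24.9%) lower, but 5994 and 4184 after median centring. In Esh9-1 25.9% of probe sets were called lower. ESRP1, the epithelial splicing regulator that favours inclusion of the variable exons, had by far the largest change of the list. It fell in ERC4 from a range of 8.38 to 8.56 in parental cells to 4.52 to 4.68, by 3.85 ± 0.08 (limma adjusted p = 4.5e-09). In Esh9-1 it fell from 10.07 to 10.32 in NT to 5.59 to 6.29, by 4.22 ± 0.16 (limma adjusted p = 6.4e-08). In both lines its level ended below the array medians.

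The other splicing genes moved by less than 1 on the log2 scale. In Esh9-1, PCBP1, an RNA-binding protein known to hold back inclusion of variable exons, fell by 0.99 ± 0.09, and the spliceosome subunit gene U2AF2 fell by 0.64 ± 0.08. SND1, a multifunctional RNA-binding protein, rose by 0.50 ± 0.07 there. In ERC4, SRRM1, TRA2B and U2AF2 gave 0.45, 0.44 and 0.42 and were called, but each lost the call after quantile normalization. For U2AF2 the mean over its 3 probe sets pointed the other way, at -0.37.

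Of the integrins known to bind osteopontin, 9 subunits were measured. In ERC4 1 was called higher and 1 lower, with a median of -0.15, while in Esh9-1 4 were called higher and 0 lower, with a median of 0.22. ITGAV, the alpha subunit of the main arginine-glycine-aspartate receptors, rose in Esh9-1 from 10.02 to 10.24 in NT to 11.41 to 11.52, by 1.38 ± 0.08 (limma adjusted p = 7.6e-07). Its partners ITGB1 and ITGB5 rose by 1.00 ± 0.06 and 0.79 ± 0.06, and ITGA5, known as the fibronectin receptor's alpha subunit, by 1.76 ± 0.07. For ITGB1 2 of 5 probe sets were called higher, and the mean over the 5 gave 0.29. In ERC4, where SPP1 was high, ITGAV gave 0.26 ± 0.13 and ITGB1 0.21 ± 0.08, neither of them called (limma adjusted p = 0.122 and 0.0511).

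ITGA5 moved the other way in ERC4, falling by 0.85 ± 0.09 (limma adjusted p = 4.4e-05), with 7.82 to 7.87 in parental and 6.86 to 7.12 in ERC4 cells. ITGB5 was called higher by 0.27 ± 0.09 (limma adjusted p = 0.0306). Quantile normalization brought it to 0.04 and ended the call, as did each fit without parental replicate 1 or 3 or ERC4 replicate 1 or 2. ITGA4, ITGA8, ITGA9 and ITGB8 lay below the array medians in all 4 groups and were not called. ITGB3 was not called in its brightest probe set, and its 7 probe sets were split, with 4 called higher and 1 lower in Esh9-1 and 1 each way in ERC4.

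Enzymes that cut or cross-link osteopontin were called lower in 3 of 6 cases in ERC4 and higher in none, with a median of -0.41. They were called higher in 4 of 6 cases in Esh9-1 and lower in none, with a median of 1.27. Of all genes, 24.8% were called lower in ERC4 and 26.2% higher in Esh9-1. MMP7, a matrix metalloproteinase that cleaves osteopontin, fell by 1.86 ± 0.09 in ERC4, from 7.42 to 7.49 in parental cells to 5.45 to 5.75 (limma adjusted p = 5.4e-07). TGM2, a transglutaminase that cross-links it, fell by 0.86 ± 0.09 there. F2, which encodes prothrombin, fell by 0.57 ± 0.09 to a level below the array medians.

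In Esh9-1 TGM2 rose by 2.14 ± 0.13, and the gelatinase genes MMP2 and MMP9 rose by 3.21 ± 0.07 and 2.27 ± 0.10 (limma adjusted p = 1.54e-06, 2.85e-09 and 1.85e-07). MMP2 went from 6.34 to 6.53 in NT, below the array medians, to a mean of 9.68. The mean over the 4 probe sets of TGM2 gave 1.10, with 3 of them called higher. MMP7 was called higher in Esh9-1, by 0.39 ± 0.11 (limma adjusted p = 0.0178), at levels below the array medians, a call that ended without NT replicate 2 or 3. TGM2 and MMP7 were thus called with opposite signs in the 2 lines. MMP3 was not called in either.

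Osteopontin belongs to a family of bone and tooth proteins whose genes lie side by side. The other 4, IBSP, DMP1, MEPE and DSPP, lay below the array medians in every group, apart from MEPE in parental cells, at 5.77. In ERC4 IBSP and MEPE were called lower, by 0.39 ± 0.09 and 0.29 ± 0.09, and in Esh9-1 only DSPP was called, at 0.22 ± 0.06. The MEPE call ended after quantile normalization, after median centring and without parental replicate 3 or ERC4 replicate 1 or 2. The call for DSPP ended without NT replicate 3 or Esh9-1 replicate 2.

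Transcription factors known to act on SPP1 were mixed. Of 18 measured, 8 were called higher and 6 lower in ERC4 (median 0.11), and 3 higher and 6 lower in Esh9-1 (median -0.07). SMAD4 and SMAD3, which carry TGF-beta signals, rose in ERC4 by 1.06 ± 0.18 and 0.74 ± 0.09, and the AP-1 subunit gene JUN by 0.74 ± 0.11 (limma adjusted p = 0.00093, 1e-04 and 0.00034). LEF1, a partner of beta-catenin, fell by 0.94 ± 0.14 to a level below the array medians. Averaged over all probe sets of each gene, SMAD4 gave 0.52, JUN 0.47 and LEF1 -0.34, all still called.

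In Esh9-1 MYB fell by 2.35 ± 0.11 and SP1, which binds GC boxes, by 1.34 ± 0.17 (limma adjusted p = 3.24e-07 and 0.000126). Both ended below the array medians, at 5.88 and 5.87. SP1, with 1 probe set, lay close to the medians in NT, at 7.21. SMAD3 and JUN rose by 1.11 ± 0.08 and 0.79 ± 0.08 (limma adjusted p = 3.71e-06 and 3.66e-05). The 4 probe sets of SMAD3 were split, with 2 called higher and 2 lower and a mean of 0.25. The mean over the 2 probe sets of MYB was -1.32. RUNX2, the regulator of bone cell genes, was not called in either comparison, at 0.04 ± 0.09 in ERC4 and within 0.01 of 0 in Esh9-1. The ETS factor genes ETS1 and ETV4 gave 0.72 ± 0.12 and -0.70 ± 0.09 in ERC4, and both were called. In Esh9-1 ETS1 gave -0.03 ± 0.07 and was not called, while ETV4 was called lower, by 0.54 ± 0.06. The vitamin D receptor gene VDR fell by 0.71 in ERC4 and fell by 0.64 in Esh9-1. ETS1, ETV4 and VDR are named here after their values were seen.

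Hyaluronan genes were called higher in 3 of 13 cases and lower in 5 in each comparison, with medians of -0.20 and -0.21. UGDH, the enzyme that makes the glucuronic acid precursor, rose in ERC4 from 7.16 to 7.43 in parental cells to 9.49 to 10.09, by 2.47 ± 0.15 (limma adjusted p = 1.6e-06). In Esh9-1 it gave -0.26 ± 0.10 and was not called (limma adjusted p = 0.054). HMMR, another hyaluronan receptor that is also a mitotic protein, rose in both lines, by 1.05 ± 0.22 and 0.84 ± 0.08. VCAN, the hyaluronan-binding proteoglycan versican, fell by 0.95 ± 0.10 in ERC4 and rose by 1.09 ± 0.07 in Esh9-1. CEMIP2, a hyaluronan-degrading protein at the cell surface, rose by 0.43 ± 0.08 in ERC4, without a call once quantiles were equalised, and fell by 0.64 ± 0.10 in Esh9-1. STAB1, a scavenger receptor for hyaluronan, fell by 0.26 ± 0.10 and 0.33 ± 0.08, of which the first lost its call in 9 of 14 alternatives and the second with the mean of its probe sets, at -0.16. The synthase gene HAS2 lay below the array medians throughout, and was called lower in Esh9-1, by 0.21.

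Of the proteins that tie the tail of CD44 to the cytoskeleton or signal beside it, 4 of 13 were called higher and 4 lower in ERC4 (median -0.09), and 4 higher and 7 lower in Esh9-1 (median -0.22). The 8 calls in ERC4 came to 5 without ERC4 replicate 1 and to 4 without ERC4 replicate 2 or 3. MSN, which encodes moesin, the linker between membrane proteins such as CD44 and actin, rose most in both. It went from a mean of 8.78 in parental cells to 10.33 in ERC4, a rise of 1.55 ± 0.09 (limma adjusted p = 1.3e-06). In Esh9-1 it rose from 10.89 to 11.02 in NT to 12.16 to 12.19, by 1.22 ± 0.06 (limma adjusted p = 3.9e-07). Ezrin, its relative that marks epithelial cells, fell in Esh9-1 by 0.96 ± 0.11 (EZR). In ERC4 EZR was called higher, by 0.25 ± 0.08 (limma adjusted p = 0.0225), a call that ended in 6 of 14 alternatives, among them quantile normalization, at 0.04, and the fit without parental replicate 2 or 3 or any single ERC4 array. ANK3, an ankyrin of the lateral membrane, fell by 0.80 ± 0.09 in ERC4 and 1.35 ± 0.11 in Esh9-1. TIAM1, an exchange factor for RAC, fell by 0.95 ± 0.07 in Esh9-1 and gave -0.01 ± 0.10 in ERC4. VAV2 and FYN were called lower in ERC4, by 0.31 and 0.30, and each lost the call without 1 array, ERC4 replicate 3 for VAV2 and ERC4 replicate 2 for FYN. In Esh9-1 VAV2 fell by 0.53 ± 0.10, while FYN rose by 0.72 ± 0.06 (limma adjusted p = 1.31e-05), or by 0.37 with the mean of its probe sets.

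CD44 is cut from the cell surface by metalloproteinases and then within the membrane by gamma-secretase. Of 7 such genes, 1 was called higher and 1 lower in ERC4 (median 0.15), and 2 higher and 2 lower in Esh9-1 (median 0.15). ADAM10, the main constitutive sheddase, rose by 1.25 ± 0.14 in ERC4 (limma adjusted p = 6.6e-05) and by 0.73 ± 0.07 in Esh9-1 (limma adjusted p = 1.7e-05). ADAM17 fell by 0.51 ± 0.06 and PSEN2, a catalytic subunit of gamma-secretase, rose by 0.53 ± 0.06 in Esh9-1. MMP14, a membrane-bound metalloproteinase, fell by 0.41 ± 0.09 in Esh9-1. Its call in ERC4, at -0.22 ± 0.08, ended in 9 of 14 alternatives. Averaged over all probe sets of each gene, ADAM10 gave 0.32, PSEN2 0.20 and MMP14 -0.21 in Esh9-1, all still called.

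**Figure D3:**
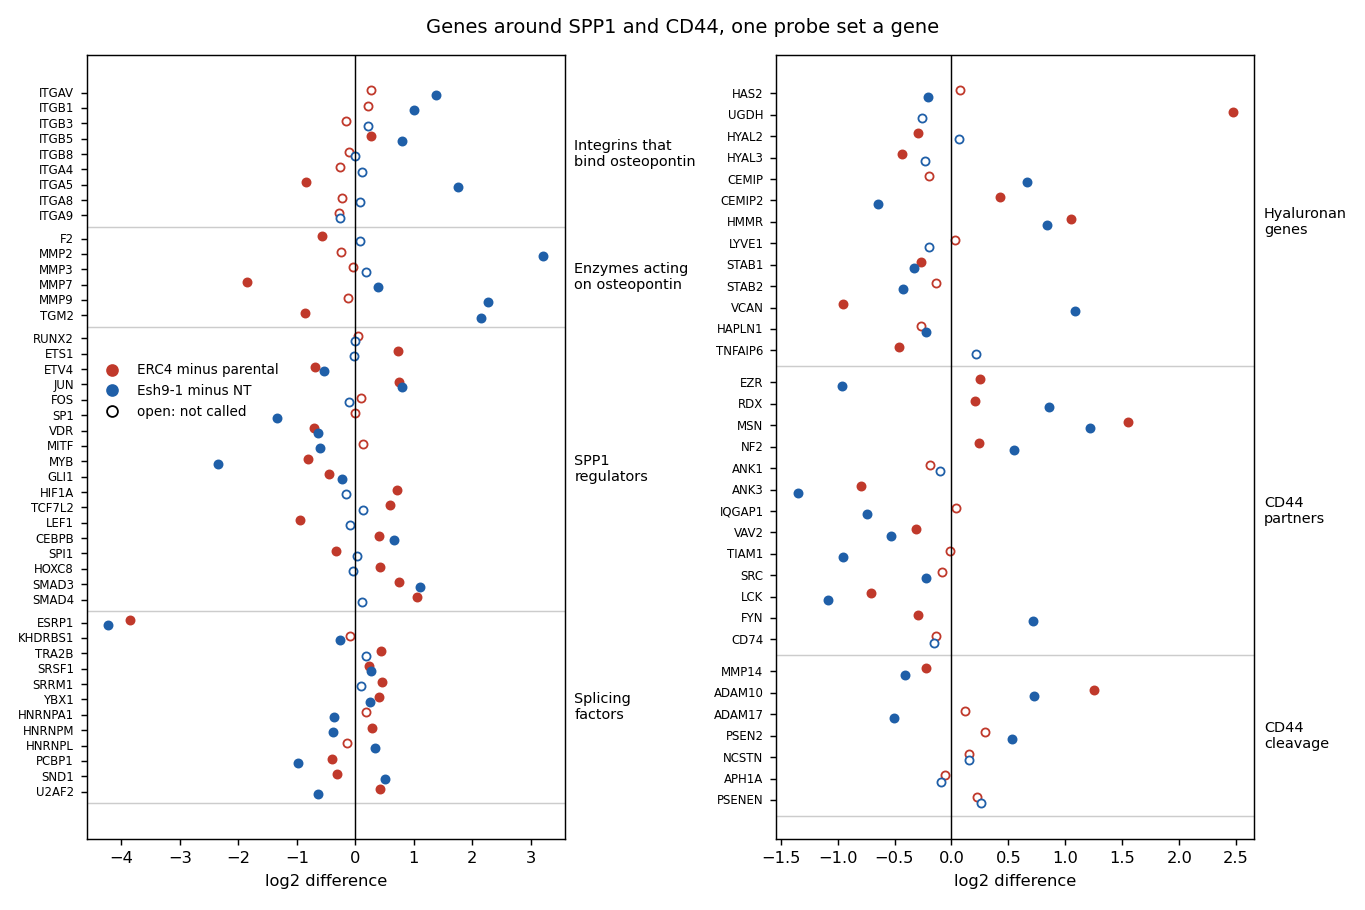
Log2 difference of genes that act on or with osteopontin and CD44, 1 probe set a gene, in ERC4 minus parental (red) and Esh9-1 minus NT (blue), 3 arrays against 3; filled points were called and open ones were not. ESRP1 lies at -3.85 and -4.22, MSN is above 1 in both, and TGM2 and VCAN lie on opposite sides of 0.

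The neighbours of the genes on their chromosomes were compared next, taking the 5 nearest measured genes on each side in RefSeq order. Around SPP1, 2 of 10 were called higher and 2 lower in ERC4, with a median of -0.13. In Esh9-1 2 were called higher and 3 lower, with a median of -0.035. The highest in ERC4, HERC5, gave 0.50 ± 0.13. ABCG2, a drug efflux pump and the nearest measured gene after SPP1, gave 0.34 ± 0.12 in ERC4. Both were dim there, below the array medians in parental cells (5.07 and 4.87) and in ERC4 (5.57 and 5.22). The ABCG2 call in ERC4 ended with the replicate number as a block and without parental replicate 1 or any single ERC4 array. In Esh9-1 ABCG2 fell by 0.88 ± 0.08. HERC5, an interferon-induced ligase gene, rose by 1.68 ± 0.10 in Esh9-1, while its neighbour HERC6 fell by 0.44 ± 0.07.

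Around CD44, 5 of 10 neighbours were called higher and 2 lower in ERC4 (median 0.19), and 4 higher and 2 lower in Esh9-1 (median 0.07). The nearest measured gene before it, PDHX, a subunit of the pyruvate dehydrogenase complex, rose by 1.20 ± 0.09 in ERC4 and 1.06 ± 0.07 in Esh9-1. Beyond it on the other side, FJX1 rose by 1.03 ± 0.10 and 1.22 ± 0.09 and TRIM44 by 0.66 ± 0.10 and 0.70 ± 0.06. SLC1A2, a glutamate transporter gene and the nearest measured one after CD44, fell by 0.64 ± 0.10 in ERC4 and gave -0.13 ± 0.07 in Esh9-1. The mean over its 3 probe sets in ERC4 was -0.39. APIP and PAMR1 were not called in either comparison.

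EHF, an epithelial transcription factor gene close to CD44, differed in the opposite direction to it in both lines. It fell by 2.66 ± 0.09 in ERC4, from 6.53 in parental cells to 3.87 (limma adjusted p = 5.54e-08). In Esh9-1 it fell by 3.78 ± 0.15, from 7.94 in NT to 4.16 (limma adjusted p = 7.1e-08). CAT, the catalase gene at the far side of EHF, rose by 0.80 ± 0.09 in ERC4, or by 0.38 with the mean of its 3 probe sets. The genes on either side of CD44 thus did not share 1 direction.

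**Figure D4:**
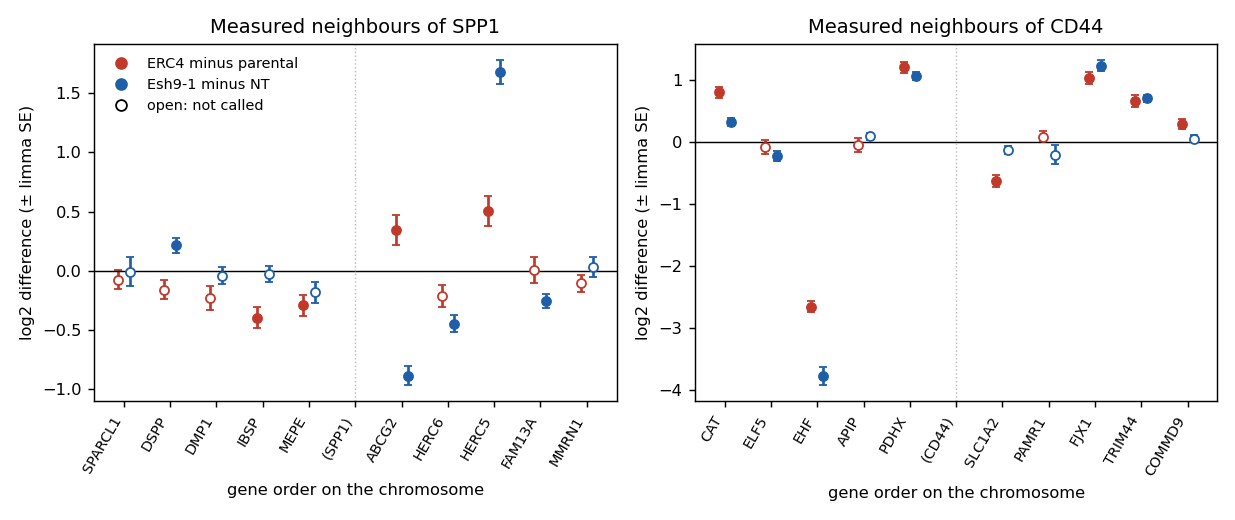
Log2 difference (± limma SE, 3 arrays against 3) of the 5 nearest measured genes on each side of SPP1 and of CD44 in RefSeq gene order; the dotted line is the place of the gene itself and open points were not called. EHF lies at -2.66 and -3.78, while PDHX and FJX1 lie above 1 in both comparisons.

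The transcripts with the pattern closest to each member over the 12 arrays were found by the root mean square of the differences between log2 values, after centring each set of 6 arrays. For SPP1 the closest of 11719 probe sets that reached the array medians in some group was FGG, a fibrinogen chain gene, at a distance of 0.66. It was followed by IGFBP1 (0.85), ALB (0.94), FGB (0.96) and GBP1 (1.05). SPP1 had the largest difference of all probe sets tested in ERC4, so no gene could reach it. There FGG gave 4.07, IGFBP1 3.81, ALB 3.30, FGB 3.08 and GBP1 3.12. They parted in Esh9-1, where IGFBP1 and GBP1 stood at means of 7.32 and 9.71, against 5.32 and 7.71 in NT, and FGG, ALB and FGB gave -0.03, -0.03 and 0.21 at levels below the array medians. FGB has 2 probe sets, whose mean gave 1.24 in Esh9-1, and the mean over the 3 of ALB gave 1.17 in ERC4.

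For the brightest CD44 probe set the distances were smaller, at 0.11 for ACOT9, a mitochondrial thioesterase gene, and for GSDME, which encodes gasdermin E. PRDX4, a peroxiredoxin, stood at 0.13, BASP1 at 0.14 and HBEGF, an EGFR ligand, at 0.15. Their differences ran from 0.58 to 0.99 in ERC4 and from 1.73 to 2.28 in Esh9-1, on either side of the 0.80 and 1.98 of CD44. In ERC4 ACOT9 came to 0.44 after quantile normalization and HBEGF to 0.28 with the mean of its 3 probe sets.

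Cells of other kinds that make osteopontin were looked for through their markers. Of 9 macrophage markers, AIF1 and ITGAM lay at or above the array medians in parental cells, and only AIF1 did in ERC4. Their summed intensity ran from 350 to 388 in parental and from 281 to 296 in ERC4 arrays. Of the 9 markers 5 were called lower and 0 higher in ERC4, where 24.8% and 26% of all genes were. The 5 called lay below the array medians in both groups. In NT and Esh9-1 the sums were 563 to 577 and 502 to 549. In Esh9-1 2 of the 9 were called higher and 2 lower, where 26.2% and 26.1% of all genes were. The part of these markers in the SPP1 values was not tested. Of 3 osteoblast markers measured, COL1A1 lay above the array medians in all groups, while ALPL and IBSP lay below them. The sum of the 3 ran from 243 to 253 in parental and 190 to 217 in ERC4 arrays.

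Of 6 fibroblast markers, whose cells carry much CD44, COL1A1 lay above the array medians in every group and DCN in parental cells. Their sum ran from 371 to 384 in parental and 293 to 318 in ERC4, and from 851 to 946 in NT and 898 to 944 in Esh9-1. In Esh9-1 1 of the 6, LUM, was called higher, by 2.56 ± 0.06, to a level of 6.78 below the array medians. The epithelial sum, of 8 markers, ran from 19096 to 19384 in parental and 8209 to 8637 in ERC4 arrays, and from 60810 to 61896 in NT and 10943 to 11490 in Esh9-1 arrays. The part of these markers in the CD44 result was not tested. CD44 was thus higher in the lines in which epithelial markers were lower.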

How the data were processed

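Transcript levels were measured on 12 expression arrays in 4 groups of 3, taken from the sample titles. The authors deposited linear intensities of 22277 probe sets; RMA is the method named, per the submitters' processing notes. Its version and the sets of arrays it was run on are not given in the sources. The platform annotation, with symbols updated through gene IDs, gives 1 symbol to 19070 probe sets, several to 1043 and none to 2164. Only those with 1 symbol were named, which left out some list genes. Where 1 value a gene was needed, the probe set with the highest mean over the 12 arrays was taken.

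Values were taken to log2(value + 1), which understates changes of dim probe sets. Each comparison was fitted on its own 6 arrays with limma 3.58.1 in R 4.3.3 (lmFit, eBayes) over 22215 probe sets, leaving out 62 control probe sets, with two-sided Benjamini-Hochberg adjusted p-values over all of them and a threshold of 0.05. The procedure was tested on simulated data, where it recovered small changes less often than large ones and gave a share of false calls slightly above the threshold in the ERC4 comparison. The number of arrays limits the precision, and detection calls were not used here. Genes named in each list are the up to 4 called genes with the largest differences whose higher group reached the array medians, with the closest patterns and chromosomal neighbours. Others, such as VDR, RUNX2, ETS1, ETV4 and HAS2, were chosen after their values were seen. The members, lists and tests were chosen with earlier results of these data known. Alternatives were quantile normalization within a set, median centring, no pseudocount, 1 model of 12 arrays, the replicate number as a block, eBayes with trend and robust settings, leaving out dim probe sets or each array, and averaging over a gene's probe sets. Promoters came from RefSeq on GRCh38.p14 and matched both genes. Figures were drawn with matplotlib 3.10.9.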

Additional observations from a re-analysis of the deposited data

How the results depend on the processing

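The CD44 result in Esh9-1 kept its direction and its call in all alternatives run, with log2 differences of the brightest probe set from 1.70 (the mean of the gene's probe sets) to 2.04 (without NT replicate 1) and 7 probe sets called in each fit by probe set. SPP1 in ERC4 ran from 5.64 to 5.80, and in Esh9-1 from 0.66 to 0.75, where leaving out dim probe sets removed it from the test. CD44 in ERC4 moved from 0.80 to 0.62 after quantile normalization within the set and to 1.05 with the mean of the gene's probe sets, since 5 of the other 7 gave larger values. U2AF2 in ERC4 reversed, to -0.37, with the mean of its probe sets. The cause was not tested for the shift under quantile normalization.

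Of the named genes called, 41 of 57 in ERC4 and 50 of 57 in Esh9-1 kept the call in every alternative run. In ERC4 the integrins went from 2 calls to between 1 and 4, the cytoskeletal partners from 8 to between 4 (without ERC4 replicate 2 or 3) and 10, and the cleavage genes and the bone protein family from 2 to between 1 and 3. In ERC4 macrophage markers went from 5 calls to between 1, when dim probe sets were left out, and 6, osteoblast markers from 3 to 1, fibroblast markers from 5 to 2 and lung markers from 1 to 0 after quantile normalization. In Esh9-1 hyaluronan genes went from 8 to 5 without dim probe sets, the bone protein family from 1 to 0, macrophage markers from 4 to between 1 and 6, fibroblast markers from 1 to between 0 and 2 and lung markers from 2 to 1.

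With the replicate number as a block, 10639 probe sets were called in ERC4 and 10454 in Esh9-1, against 10774 and 11184 without it. Deviations of arrays with the same number correlated between 0.011 and 0.065 in the first set and between -0.141 and -0.034 in the second. Not every array of the first set, and no array of the second, correlated best with its own number. No pairing by number was thus seen, but such correlations cannot exclude that arrays with the same number were handled together. Dim signal limits SPP1 in parental, NT and Esh9-1 cells and the CD44 probe set 216056_at.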
